A study of Mus musculus with 79 samples.

Results

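The dual-specificity MAP kinase phosphatases were examined in mouse liver, kidney and lung after 4 h of low oxygen. The members were the 9 genes Dusp1, Dusp3, Dusp4, Dusp5, Dusp6, Dusp7, Dusp8, Dusp10 and Dusp16, taken by symbol from 5 tables of raw counts that list 15198 symbols in all. Rows of 8 members were present in all 5 tables, and no row of Dusp5 was analysed here. All mice were C57BL/6, aged 3 months and entrained for 2 weeks to 12 h of light and 12 h of dark. In the light-dark experiment (LD), 16 wild-type (WT) mice breathed a gas of 21% oxygen (air) or 6% oxygen at ZT4-8, in the light, or at ZT16-20, in the dark. Per the design text, liver, kidney and lung came from the same mice, 4 per group, although the labels do not say which libraries share a mouse. In the constant-darkness experiment (DD), WT and Per1,2 double knock-out (KO) mice were held in the dark for 2 days and exposed to the same gases at CT4-8 or CT16-20. Only liver was sequenced there, from 4 mice per group and from 3 in the KO group at CT16-20 in 6% oxygen. These make 79 libraries in 20 groups, each with 21% oxygen as its control. The labels do not give which parts of Per1 and Per2 were deleted.

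MAP kinases (ERK, JNK and p38) are switched on by phosphorylation of a threonine and a tyrosine in the activation loop, and dual-specificity phosphatases remove both phosphates. Dusp1, Dusp4 and Dusp5 encode nuclear, inducible enzymes. Dusp6 and Dusp7 encode cytosolic phosphatases selective for ERK, and Dusp8, Dusp10 and Dusp16 encode phosphatases that prefer JNK and p38. Dusp3 encodes a small atypical enzyme that lacks the MAP kinase docking domain of the others. Many of these genes are themselves transcribed in response to the kinases that they switch off, which makes them feedback regulators.

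Promoter sequence is shown for the 4 members on which the comparisons turn: Dusp1 and Dusp8, the members called higher in 6% oxygen in the most settings, and Dusp6 and Dusp7, which share a substrate class and were called in opposite directions in lung. Each line gives the 250 bases before the RefSeq transcription start (GRCm38.p6), 5′ to 3′ on the gene's own strand. Capitals mark matches to any of 6 motifs searched on both strands. The first was ACGTG, a form of the core of the hypoxia response element, called the hypoxia core here. Cores with guanine instead of adenine as the first base were not searched, marked or counted. The others were CACGTG (an E-box, which contains the hypoxia core), TGACG and TGACGTCA (the short and the full cAMP response element, CRE), TGANTCA (AP-1) and the CArG box of SRF. The full CRE contains the short one.
Dusp1, chr17:26508473-26508722, minus strand: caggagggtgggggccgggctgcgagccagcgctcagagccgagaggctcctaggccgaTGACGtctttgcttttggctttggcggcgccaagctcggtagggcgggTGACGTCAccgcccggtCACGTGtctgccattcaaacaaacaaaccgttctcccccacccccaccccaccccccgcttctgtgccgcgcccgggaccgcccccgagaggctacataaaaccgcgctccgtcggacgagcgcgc
Dusp8, chr7:142095285-142095534, minus strand: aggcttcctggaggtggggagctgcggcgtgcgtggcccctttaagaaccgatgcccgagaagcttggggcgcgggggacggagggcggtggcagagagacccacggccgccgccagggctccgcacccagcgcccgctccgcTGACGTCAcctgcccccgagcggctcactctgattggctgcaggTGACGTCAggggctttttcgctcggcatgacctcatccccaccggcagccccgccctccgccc
Dusp6, chr10:99262981-99263230, plus strand: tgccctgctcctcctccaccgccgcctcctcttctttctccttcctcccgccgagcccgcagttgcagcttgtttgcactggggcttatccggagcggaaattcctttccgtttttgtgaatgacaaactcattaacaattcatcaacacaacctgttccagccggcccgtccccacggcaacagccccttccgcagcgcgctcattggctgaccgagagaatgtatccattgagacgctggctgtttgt
Dusp7, chr9:106368382-106368631, plus strand: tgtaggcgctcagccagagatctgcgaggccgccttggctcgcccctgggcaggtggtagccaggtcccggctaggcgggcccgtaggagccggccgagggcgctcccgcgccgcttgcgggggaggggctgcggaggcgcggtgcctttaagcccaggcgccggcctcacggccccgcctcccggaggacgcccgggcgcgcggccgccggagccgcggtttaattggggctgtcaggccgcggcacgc
Windows of 300 bases, from 250 before to 50 after the start, were found in RefSeq for 8 of the 9 members, and for Dusp4 none was used. The Dusp1 window held 1 full CRE, an additional short CRE and 1 E-box, which reads as the hypoxia core on both strands. The Dusp8 window held 2 full CREs. None of the 6 motifs was found in the windows of Dusp6, Dusp7 and Dusp10. Of 32851 promoter windows of that length, 1.79% held a full CRE, 20.8% a short CRE, 7.15% an E-box, 19.6% the hypoxia core, 7.81% the AP-1 motif and 1.63% a CArG box. The Dusp16 window held a short CRE, the Dusp3 window a hypoxia core, and the Dusp5 window 2 CArG boxes, a hypoxia core and a short CRE. A match in these windows describes letters only, and a window without the hypoxia core may hold the form that was not searched.

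In GENCODE vM21 (mm10) Dusp1 lies on chr17:26505590-26562128 on the minus strand, Dusp6 on chr10:99263231-99267489 on the plus strand, Dusp7 on chr9:106368632-106375724 on the plus strand and Dusp8 on chr7:142079490-142095843 on the minus strand. Dusp3 lies on chromosome 11, Dusp4 on 8, Dusp5 on 19, Dusp10 on 1 and Dusp16 on 6. The RefSeq starts of Dusp1 and Dusp8 lie inside their longer GENCODE spans. Protein-coding genes on the opposite strand overlap Dusp1 (Ergic1), Dusp3 (Cfap97d1) and Dusp10 (1700056E22Rik), non-coding ones overlap Dusp8 and Dusp16, and the strand setting of the counting is not given in the sources used here. Counts of those members and of their opposite-strand neighbours therefore cannot be told apart where they overlap.

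Libraries held 1443279 to 6744476 counts, with a median of 3016455. Levels are given as counts per 1000000 counts (CPM) after scaling within a table, and each group of 4 is listed from lowest to highest. Tissue labels matched their markers: the summed level of 8 hepatocyte genes was 62975 to 164330 CPM in liver libraries and at most 746 CPM elsewhere, 8 kidney tubule genes reached 14509 to 18018 CPM in kidney and at most 37.4 CPM in the other tables, and 8 lung epithelial genes reached 65221 to 97933 CPM in lung. Outside their own tissue these sums cover fewer genes, since 6 or 7 of the 8 hepatocyte genes were listed in lung and kidney, and 0 to 5 of the 8 kidney tubule genes in the other tables. The epithelial genes also summed to 4239 to 7140 CPM in kidney, with Sftpa1 and Lamp3 not listed there. Per1 ran from 14.9 to 36.3 CPM in KO and from 16.5 to 84.7 CPM in WT constant-dark liver, and Per2 from 4.62 to 32.1 and from 2.92 to 29.1 CPM. Transcript counts outside a deleted part cannot check the genotype. The median correlation of a library with the others of its group was 0.971 at the median, and 4 libraries were under 0.95: air replicate A of WT liver at CT4-8 (0.911), 6% replicate B of KO liver at CT4-8 (0.943), air replicate D of lung at ZT16-20 (0.944) and air replicate C of kidney at ZT4-8 (0.946). KO libraries from 6% oxygen were deeper than those from air at the same time.

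Members of the family were called in every tissue and setting in low oxygen, most of them higher. Over the 10 tissue, time and genotype settings, 76 member values could be tested, of which 35 were called higher in 6% oxygen, 8 were called lower and 33 were not called (edgeR quasi-likelihood test, adjusted p under 0.05 over all genes). Of all genes tested, 4.51% to 22.6% were called in a setting, and 2.39% to 11.2% were called higher. Dusp1 rose in all 10 settings, Dusp8 in 8, Dusp4 in 6 of the 8 in which it was tested, and Dusp6 and Dusp16 in 4 each. Dusp10 rose in 2. Dusp7 fell in 6 settings and rose in 1, Dusp6 fell in 1 and Dusp3 fell in 1. Some members passed the filter on low counts mainly through the group in which they were high: Dusp4 in each table that tested it (0 of 8 air libraries above the filter's level in liver and lung and 3 of 8 in kidney), Dusp8 outside lung (2 of 8 air against 8 of 8 low-oxygen libraries in light-dark liver, kidney and WT constant-dark liver) and Dusp7 in WT constant-dark liver (7 of 8 air against 3 of 8). Their calls there are a description, and the counts of members called that include them support nothing beyond it. The summed RNA of a tissue cannot separate a change in the number of cells of a type from a change in RNA per cell.

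**Figure D1:**
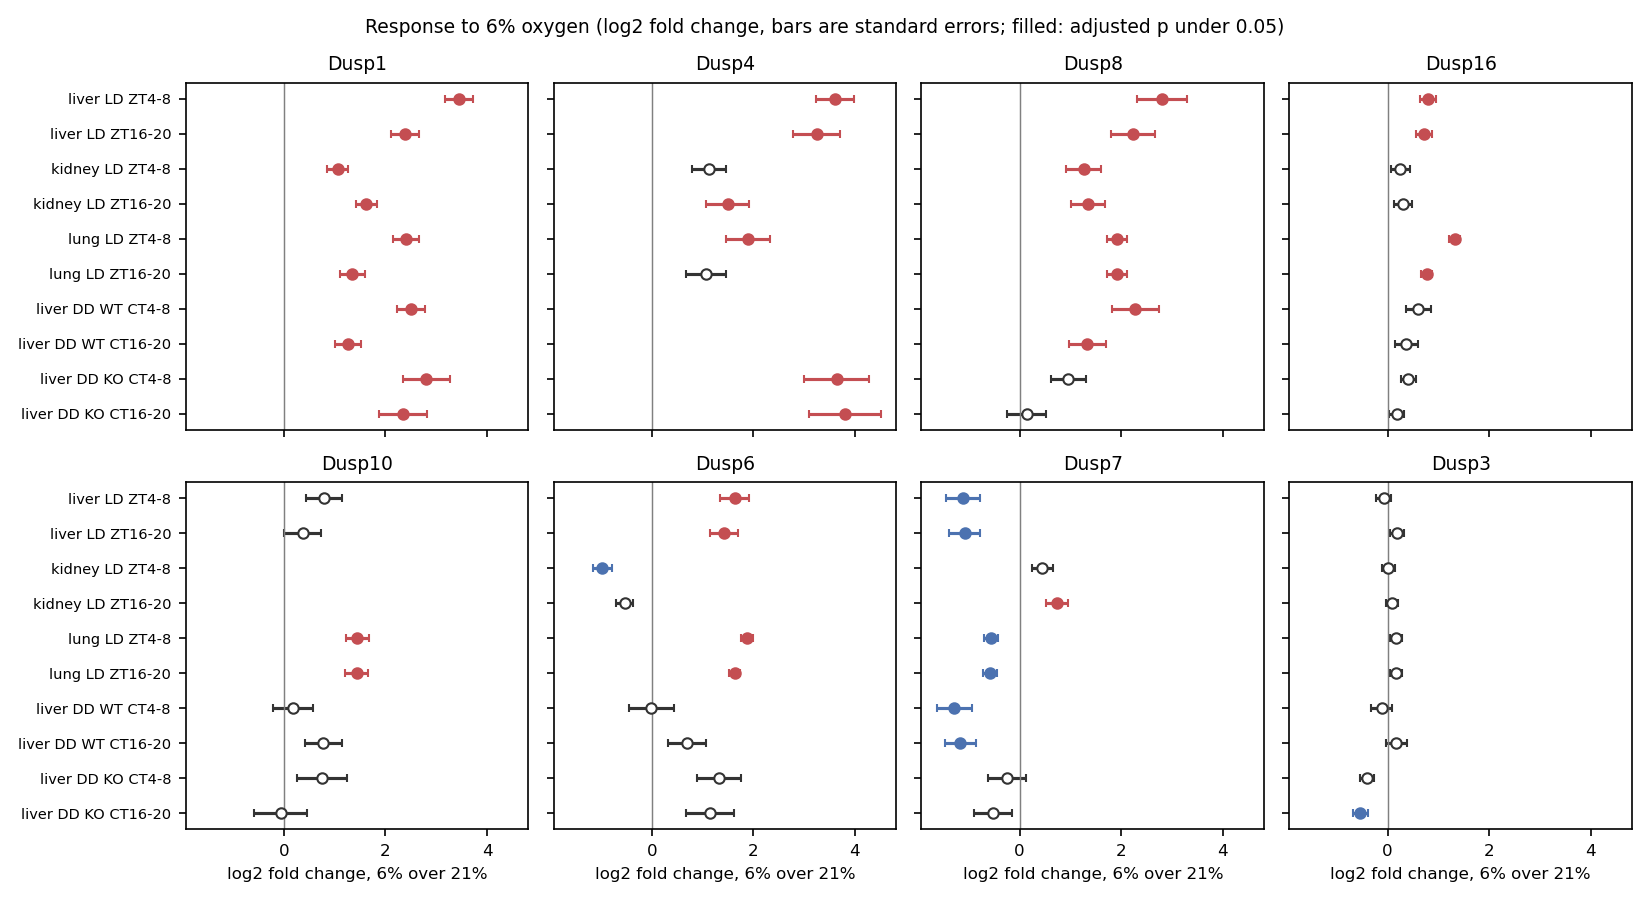
Log2 fold change of each member in 6% over 21% oxygen (horizontal axis) in the 10 settings (vertical axis). Dots are edgeR estimates, bars are standard errors, filled dots have an adjusted p under 0.05 (red higher, blue lower) and settings without a dot were not tested. Dusp1 is filled and above 0 in all 10 rows, whereas Dusp6 and Dusp7 point opposite ways in light-dark liver, kidney and lung.

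In light-dark liver, 6 of 8 members tested were called at ZT4-8 against 9.64% of all genes, and 6 of 8 at ZT16-20 against 20.3%, 5 higher and 1 lower at each time. In kidney, 3 of 7 were called at ZT4-8 (5.28% of all genes) and 4 of 7 at ZT16-20 (6.9%). In lung, 7 of 8 were called at ZT4-8 (22.6%) and 6 of 8 at ZT16-20 (21.1%). In constant darkness, 3 of 7 were called in WT liver at CT4-8 (11.8%) and 3 of 7 at CT16-20 (9.83%), and in KO liver 2 of 8 at CT4-8 (5.59%) and 3 of 8 at CT16-20 (4.51%). The median log2 fold change of the members tested was highest in lung at ZT4-8, at 1.66, and lowest in KO liver at CT16-20, at 0.16, while the median over all genes lay between -0.02 and 0.01 in the 10 settings.

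Dusp1 encodes MKP-1, the nuclear phosphatase of p38, JNK and ERK and an immediate early gene. In light-dark liver at ZT4-8 its levels were 12.6, 12.7, 21.9 and 23.5 CPM in air and 138, 179, 218 and 233 CPM in 6% oxygen. The lowest value in 6% oxygen was thus well above the highest in air, and the log2 fold change was 3.45 ± 0.28 (SE, adjusted p = 2.9e-07). At ZT16-20 in the same tissue the levels were 22.1, 25.5, 31.0 and 33.9 CPM in air and 86.5, 139.7, 157 and 209 CPM in 6% oxygen (2.39 ± 0.27, adjusted p = 1.1e-05), again without overlap.

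Kidney started higher and rose less. At ZT4-8 kidney Dusp1 was 73.7, 76.8, 109.9 and 126 CPM in air and 163, 166, 186 and 293 CPM in 6% oxygen (log2 fold change 1.06 ± 0.21, adjusted p = 0.0040). At ZT16-20 it was 45.9, 57.4, 65.2 and 80.2 CPM in air and 158, 189, 206 and 216 CPM in 6% oxygen (1.63 ± 0.21, adjusted p = 5.8e-05). The groups did not overlap at either time.

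Lung had the highest Dusp1 of the 3 tissues. At ZT4-8 it was 137, 142, 151 and 180.3 CPM in air and 767, 769, 815 and 864 CPM in 6% oxygen (log2 fold change 2.40 ± 0.26, adjusted p = 5.9e-06). At ZT16-20 it was 165, 268, 393 and 484 CPM in air and 654, 749, 923 and 1019 CPM in 6% oxygen (1.35 ± 0.25, adjusted p = 0.0010). The control mice at ZT16-20 spread over a wider range than those at ZT4-8, with the highest value in replicate D, the library of low correlation named above, and leaving that library out kept the call. In lung, markers of other cells moved with oxygen as well. The summed level of 8 endothelial genes was 2908 to 3228 CPM in air and 4721 to 5522 CPM in 6% oxygen at ZT4-8, and 2291 to 2914 and 3335 to 4497 CPM at ZT16-20. At ZT16-20 the sum of the 7 of 8 neutrophil genes listed, without Ly6g, was 58.2 to 128 CPM in air and 249.8 to 445 CPM in 6% oxygen. At ZT4-8 the neutrophil sums overlapped, at 312 to 526 CPM in air and 354 to 647 CPM in 6% oxygen. Lymphocyte genes, 7 of 8 listed without Trbc2, summed to 126 to 160 CPM in air and 164 to 181 CPM in 6% oxygen at ZT4-8. Their sums overlapped at ZT16-20. In light-dark liver at ZT16-20 the endothelial genes summed to 83.4 to 92.4 CPM in air and 103 to 141 CPM in 6% oxygen. At ZT4-8 the endothelial sums of liver overlapped. The part of these cell types in the lung and liver results was not tested.

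In constant darkness Dusp1 rose in liver of both genotypes. In WT liver at CT4-8 it was 15.3, 19.7, 21.7 and 56.5 CPM in air and 149, 149.7, 159 and 166 CPM in 6% oxygen (log2 fold change 2.50 ± 0.28, adjusted p = 3.6e-06). The value of 56.5 CPM came from the library that stood apart, replicate A, and without it the log2 fold change was 3.05. In KO liver at CT4-8 the levels were 22.2, 35.7, 36.9 and 68.4 CPM in air and 190.4, 199.7, 366 and 394 CPM in 6% oxygen (2.81 ± 0.47, adjusted p = 0.0035). At CT16-20 they were 51.2, 64.3, 70.7 and 70.7 against 130.4, 132, 164 and 188 CPM in WT (1.26 ± 0.26, adjusted p = 0.0034), and 38.3, 45.7, 70.0 and 106 against 189, 268 and 540.3 CPM in KO (2.35 ± 0.47, adjusted p = 0.015). The KO groups at CT16-20 did not overlap, but without the mouse at 540.3 CPM, replicate A, the log2 fold change was 1.81 and the adjusted p was 0.069.

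**Figure D2:**
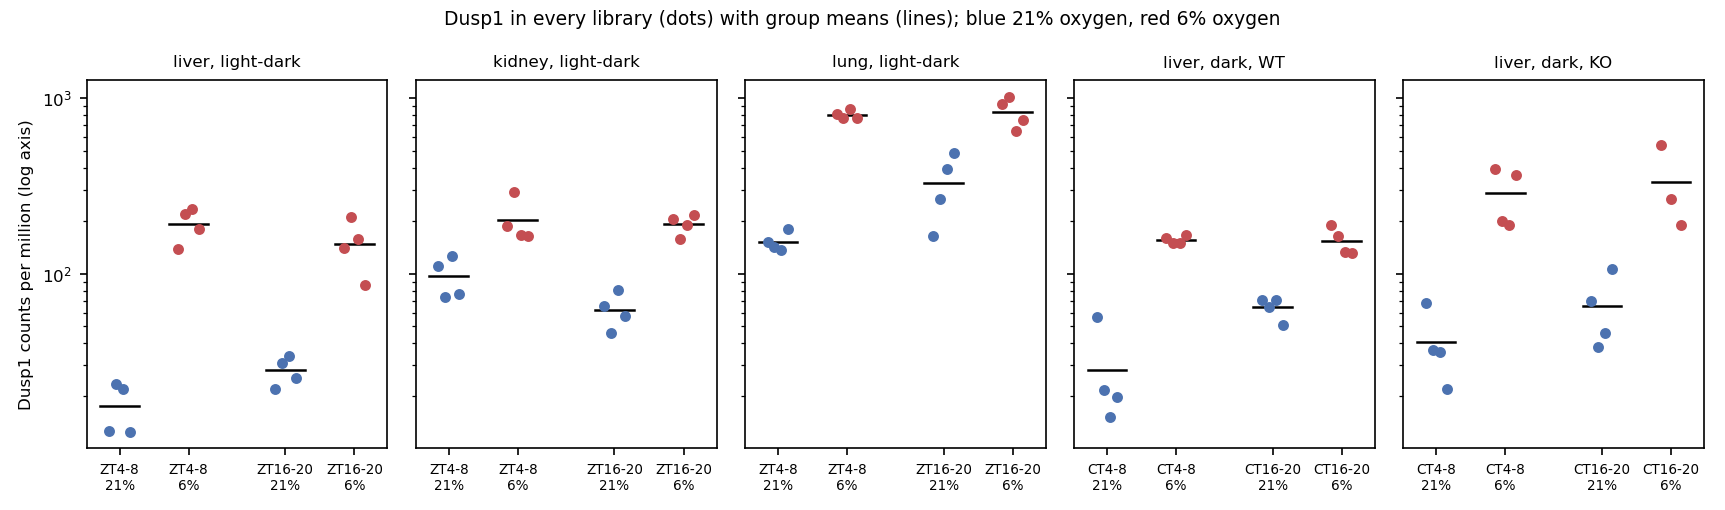
Dusp1 in every library, in CPM on a log axis, by tissue and experiment (panels), time and oxygen (horizontal axis). Dots are mice, lines are group means, blue is 21% and red 6% oxygen. In each of the 10 pairs all red dots lie above all blue dots, from 138 to 233 CPM against 12.6 to 23.5 CPM in light-dark liver at ZT4-8, for example.

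Dusp4 encodes MKP-2, the nuclear relative of MKP-1. It was close to the counting limit in air and is therefore described by counts. In light-dark liver at ZT4-8 the 4 air libraries held 2 to 3 counts each and the 4 libraries from 6% oxygen held 16 to 36, which makes 0.439 to 0.652 CPM against 5.38 to 7.37 CPM. The ratio of the summed counts, 104 against 10 and scaled to depth, was 13.1 with an exact 95% interval of 6.84 to 28.1. At ZT16-20 the sums were 48 against 5 counts and the ratio 10.3 (4.12 to 33.1). These intervals cover counting error only. The calls there (log2 fold changes of 3.62 ± 0.37 and 3.24 ± 0.46, adjusted p = 5.2e-07 and 3.6e-05) are a description, as the gene passed the filter through the 6% groups.

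KO liver showed the same pattern for Dusp4, with 0 to 2 counts per air library against 9 to 19 at CT4-8 and 0 to 1 against 12 to 24 at CT16-20. The ratios of summed counts were 14.05 (4.55 to 70.3) and 16.4 (4.32 to 139). Without 6% replicate A or C of CT4-8 the gene no longer passed the filter of the KO table. In WT liver in constant darkness the gene did not pass the filter of its table. Its sums there were 18 counts in air and 24 in 6% oxygen at CT4-8, a ratio of 1.64 (0.853 to 3.20), and 5 against 31 counts at CT16-20, a ratio of 6.08 (2.35 to 20.0). By CPM scaled within each table, WT liver at CT4-8 had the highest Dusp4 in air of the liver groups, at 1.34, 1.73, 1.81 and 3.57 CPM. These levels rest on 4 to 6 counts per library, and the highest came from replicate A, the library that stood apart. The genotype difference in air at CT4-8 was not called.

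Kidney Dusp4 was 1.99, 4.08, 4.12 and 4.62 CPM in air and 5.64, 7.58, 9.63 and 9.68 CPM in 6% oxygen at ZT4-8, which did not pass the test (log2 fold change 1.12 ± 0.34, adjusted p = 0.055). At ZT16-20 it was called (1.49 ± 0.43, adjusted p = 0.036), but with 1 library left out the call ended in 7 of 8 fits, with adjusted p-values up to 0.10. In lung it rose at ZT4-8 (1.90 ± 0.43, adjusted p = 0.0022) from 3 to 4 counts per library to 9 to 19, again passing the filter through the 6% libraries, and did not pass at ZT16-20 (1.07 ± 0.40, adjusted p = 0.058).

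Dusp6 encodes MKP-3, the cytosolic phosphatase of ERK whose transcription ERK activity itself induces. It went up in liver and lung of light-dark mice and down in kidney. In liver at ZT4-8 the levels were 7.18, 9.88, 9.98 and 12.4 CPM in air and 22.5, 27.9, 34.5 and 38 CPM in 6% oxygen (log2 fold change 1.63 ± 0.28, adjusted p = 4.8e-04). At ZT16-20 they were 8.61, 9.47, 9.97 and 14.3 CPM in air and 12.3, 31.3, 32.0 and 39.6 CPM in 6% oxygen (1.42 ± 0.28, adjusted p = 0.0012), where the lowest mouse in 6% oxygen fell within the air range.

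Lung Dusp6 was tightly grouped. It was 45.8, 48.3, 50.8 and 56.1 CPM in air and 177, 178, 181 and 202 CPM in 6% oxygen at ZT4-8 (log2 fold change 1.87 ± 0.11, adjusted p = 5.6e-12). At ZT16-20 it was 50.5, 58.2, 59.1 and 59.5 CPM against 152, 167, 189 and 196 CPM (1.63 ± 0.11, adjusted p = 7.5e-11). Neither pair of groups overlapped.

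In kidney at ZT4-8 Dusp6 went in the opposite direction: 20.1, 21.1, 22.2 and 24.8 CPM in air and 10.7, 10.9, 11.4 and 12.0 CPM in 6% oxygen (log2 fold change -0.97 ± 0.18, adjusted p = 0.0020), with no overlap. At ZT16-20 the levels were 19.7, 21.6, 22.5 and 26.2 CPM in air and 11.04, 15.2, 15.7 and 20.4 CPM in 6% oxygen. This difference did not pass the test (-0.54 ± 0.17, adjusted p = 0.062), although without the highest mouse in 6% oxygen, replicate A, it did (-0.69, adjusted p = 0.020). The kidney tubule markers summed to 14681 to 15076 CPM in air and 14509 to 14898 CPM in 6% oxygen at ZT4-8.

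In constant darkness Dusp6 was not called in liver. WT liver at CT4-8 had 7.14, 8.57, 9.54 and 12.7 CPM in air and 5.25, 8.26, 8.51 and 16.9 CPM in 6% oxygen (log2 fold change -0.01 ± 0.44, adjusted p = 0.99). KO liver at CT4-8 had 17.1, 17.9, 19.5 and 19.6 CPM in air and 15.5, 35.1, 54.3 and 81.2 CPM in 6% oxygen (1.32 ± 0.44, adjusted p = 0.11). The KO mouse at 15.5 CPM is replicate B, the library that stood apart, and without it the value was 1.62 with an adjusted p of 0.0082. At CT16-20 the log2 fold changes were 0.69 ± 0.38 in WT (adjusted p = 0.29) and 1.15 ± 0.47 in KO (adjusted p = 0.21).

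Dusp7 encodes the other ubiquitous cytosolic ERK phosphatase, MKP-X. Its log2 fold changes had the opposite sign to those of Dusp6 in each light-dark tissue, although in kidney the genes were not both called at either time. Liver counts were low, 11 to 31 per air library and 6 to 13 in 6% oxygen. At ZT4-8 the levels were 2.91, 4.57, 4.61 and 5.93 CPM in air and 1.53, 1.63, 2.25 and 3.03 CPM in 6% oxygen (log2 fold change -1.11 ± 0.33, adjusted p = 0.035), and the groups overlapped by 1 mouse. This call ended in 6 of 8 fits that left out 1 library, with adjusted p-values up to 0.12. At ZT16-20 they were 3.94, 4.89, 6.81 and 8.89 CPM in air and 2.66, 2.72, 2.78 and 3.20 CPM in 6% oxygen (-1.09 ± 0.31, adjusted p = 0.016), without overlap. Leaving out the highest air mouse, replicate A, gave -0.87 with an adjusted p of 0.067.

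Lung held the most Dusp7. It was 114, 139, 142 and 145 CPM in air and 77.7, 87.4, 97.7 and 101 CPM in 6% oxygen at ZT4-8 (log2 fold change -0.57 ± 0.14, adjusted p = 0.0035). At ZT16-20 it was 80.5, 110.4, 121 and 139.8 CPM in air and 70.0, 70.1, 76.2 and 84.3 CPM in 6% oxygen (-0.59 ± 0.14, adjusted p = 0.0034), where the lowest air mouse lay among those in 6% oxygen. In kidney the values were higher in 6% oxygen: 15.9, 18.4, 26.8 and 27.3 CPM against 24.0, 29.7, 30.7 and 37.3 CPM at ZT4-8 (0.45 ± 0.21, adjusted p = 0.25) and 12.0, 12.7, 18.1 and 19.1 CPM against 19.7, 24.7, 26.2 and 31.6 CPM at ZT16-20. Only the second passed the test (0.73 ± 0.22, adjusted p = 0.044), and that call ended in 6 of 8 fits without 1 library, with adjusted p-values up to 0.15.

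WT liver in constant darkness also had less Dusp7 in 6% oxygen, with 4.76, 9.02, 9.97 and 11.3 CPM against 2.84, 2.92, 3.10 and 5.83 CPM at CT4-8 (log2 fold change -1.29 ± 0.34, adjusted p = 0.016) and 9.02, 9.24, 12.1 and 12.1 CPM against 2.43, 4.58, 5.82 and 6.09 CPM at CT16-20 (-1.17 ± 0.31, adjusted p = 0.015). Each call ended in 2 of the fits without 1 library: at CT4-8 without 6% replicate C (adjusted p = 0.057) or D (0.063), and at CT16-20 without air replicate B (0.051) or 6% replicate B (0.058). In KO liver Dusp7 was not called, at -0.24 ± 0.38 and -0.53 ± 0.37 (adjusted p = 0.79 and 0.49).

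**Figure D3:**
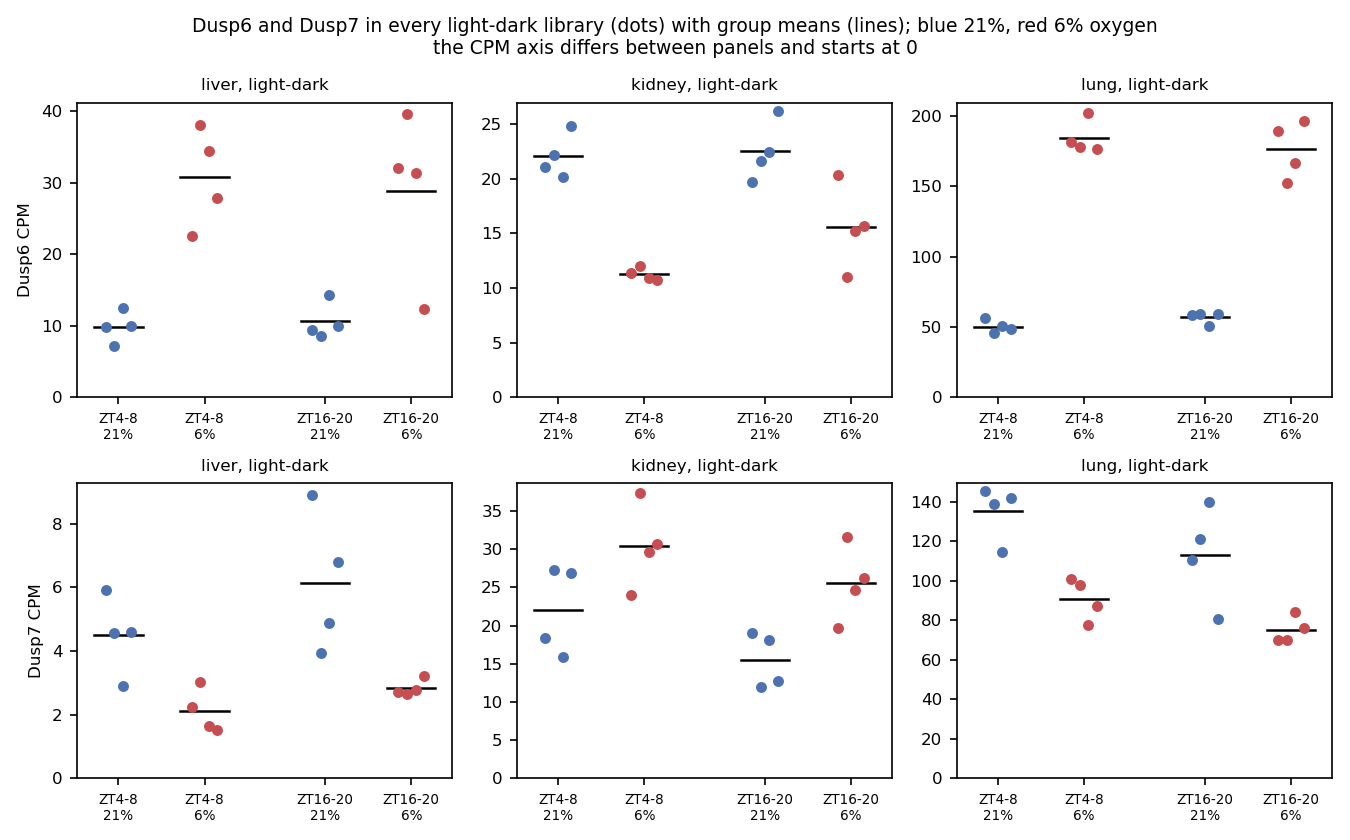
Dusp6 (upper row) and Dusp7 (lower row) in CPM in every light-dark library, by tissue, time and oxygen; each axis starts at 0 and differs between panels. Dots are mice, lines are group means, blue is 21% and red 6% oxygen. In kidney at ZT4-8 the Dusp6 dots drop from 20.1 to 24.8 CPM to 10.7 to 12.0 CPM, while in lung they climb from 45.8 to 56.1 CPM to 177 to 202 CPM.

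Dusp8 encodes a phosphatase of JNK and p38 best known from brain and heart. It was low in liver and kidney and higher in lung. In lung at ZT4-8 it was 22.6, 26.1, 30.02 and 31.9 CPM in air and 74.1, 92.2, 115 and 138 CPM in 6% oxygen (log2 fold change 1.92 ± 0.19, adjusted p = 1.2e-07). At ZT16-20 it was 17.9, 24.7, 26.6 and 30.01 CPM against 77.0, 79.0, 107 and 113 CPM (1.92 ± 0.20, adjusted p = 2.0e-07). Neither pair overlapped.

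In light-dark liver the Dusp8 levels at ZT4-8 were 0.768, 0.870, 1.10 and 2.11 CPM in air, from 4 to 8 counts, and 6.39, 7.37, 8.96 and 9.97 CPM in 6% oxygen, from 19 to 39 counts (log2 fold change 2.80 ± 0.49, adjusted p = 4.9e-04). Summed over the libraries of each group there were 127 counts in 6% oxygen and 22 in air. Divided by the summed library sizes after scaling within the table, their ratio was 7.26. Its exact 95% interval of 4.60 to 12.0 covers counting error only. As the gene passed the filter through the 6% libraries in liver and kidney, its calls there are a description. At ZT16-20 they were 0, 2.28, 2.92 and 3.44 CPM in air and 6.11, 9.27, 9.41 and 16.0 CPM in 6% oxygen (2.23 ± 0.44, adjusted p = 0.0011). Kidney Dusp8 rose at ZT4-8 (1.26 ± 0.35, adjusted p = 0.035) and at ZT16-20 (1.35 ± 0.33, adjusted p = 0.014), from 1.85 to 3.58 CPM to 6.31 to 7.29 CPM at the later time. The kidney call at ZT4-8 ended in 5 of 8 fits without 1 library (adjusted p up to 0.16), and the one at ZT16-20 without air replicate D (adjusted p = 0.057).

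WT liver in constant darkness had Dusp8 levels of 1.67, 1.73, 1.79 and 2.26 CPM in air and 6.71, 8.17, 10.9 and 11.1 CPM in 6% oxygen at CT4-8 (log2 fold change 2.28 ± 0.46, adjusted p = 0.0021). At CT16-20 the log2 fold change was 1.33 ± 0.37 (adjusted p = 0.022), with overlapping groups, and the call ended without air replicate A (adjusted p = 0.072), air replicate D (0.073) or 6% replicate B (0.13). In KO liver the gene was not called, with 2.07, 4.43, 5.43 and 7.60 CPM against 7.60, 8.20, 9.31 and 12.8 CPM at CT4-8 (0.96 ± 0.34, adjusted p = 0.12) and a log2 fold change of 0.13 ± 0.39 at CT16-20 (adjusted p = 0.90).

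Dusp16 encodes MKP-7, a phosphatase of JNK and p38 that shuttles between nucleus and cytosol. In lung at ZT4-8 it was 43.1, 47.9, 48.4 and 57.2 CPM in air and 110.1, 123, 124 and 133 CPM in 6% oxygen (log2 fold change 1.32 ± 0.11, adjusted p = 4.7e-09), and at ZT16-20 the log2 fold change was 0.77 ± 0.11 (adjusted p = 2.3e-05). Light-dark liver rose by 0.80 ± 0.16 (adjusted p = 0.0018), from 18.9 to 24.1 CPM to 32.3 to 48.8 CPM at ZT4-8, and by 0.72 ± 0.16 (adjusted p = 0.0026) at ZT16-20. These 4 pairs of groups did not overlap. Values in kidney (0.25 ± 0.19 and 0.30 ± 0.18) and in constant darkness (0.18 to 0.60) were positive but not called.

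Dusp10 encodes MKP-5, which acts on JNK and p38. It was called in lung, at 5.27, 6.84, 7.67 and 10.6 CPM in air and 19.6, 20.3, 20.8 and 22.0 CPM in 6% oxygen at ZT4-8 (log2 fold change 1.45 ± 0.22, adjusted p = 2.5e-05), with 1.44 ± 0.22 at ZT16-20 (adjusted p = 4.5e-05). In liver it was not called in any of the 6 settings, with log2 fold changes from -0.06 to 0.79. In kidney it did not pass the filter, with 11 counts in air and 22 in 6% oxygen summed at ZT4-8 and 30 and 28 at ZT16-20.

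Dusp3 encodes VHR, which acts on ERK and JNK. It was well above the counting limit in each tissue, and in light-dark mice and WT constant-dark liver its log2 fold changes lay between -0.12 and 0.19 with adjusted p-values of 0.32 or more. In KO liver at CT16-20 it was 99.1, 104, 111 and 124 CPM in air and 71.0, 76.9 and 77.6 CPM in 6% oxygen (log2 fold change -0.54 ± 0.15, adjusted p = 0.043), without overlap. In the same groups the sum of the 8 hepatocyte genes was 90323 to 117363 CPM in air and 65478 to 74121 CPM in 6% oxygen, and that of the 3 of 8 adipose and muscle genes listed 7.08 to 71.7 and 86.6 to 202 CPM, also without overlap; their part in the Dusp3 and other KO values at that time was not tested. The Dusp3 call ended in 6 of the 7 fits without 1 library, with adjusted p-values up to 0.16. In KO liver at CT4-8 the log2 fold change was -0.40 ± 0.14 (adjusted p = 0.099), and without 6% replicate D it was -0.50 with an adjusted p of 0.046.

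In air the tissues differed in their phosphatase transcripts, and lung had the most of several. Levels here come from 1 fit over the 3 light-dark tables with both times pooled, 8 mice per tissue and libraries with the same time, oxygen and replicate letter, taken to be from the same mouse, as a block. Scaling across tissues gives other CPM values than scaling within 1 table. Between lung and kidney all 8 members tested differed (75.5% of all genes did), between liver and kidney 6 (65.9%) and between liver and lung 5 (78.8%), so differences between tissues were as common among genes at large. The numbers of members against kidney include Dusp4, which was close to the counting limit in air. Dusp7 was 92.0 ± 16.2 CPM (SD, n = 8) in lung, 16.5 ± 5.04 in kidney and 9.40 ± 3.29 in liver, and Dusp8 was 19.5 ± 3.45, 2.23 ± 0.749 and 2.98 ± 2.10 CPM. The order for Dusp7 held at each step (log2 difference of liver minus kidney -0.82 ± 0.15, adjusted p = 6.9e-06), whereas Dusp8 did not differ between liver and kidney (0.31 ± 0.35, adjusted p = 0.45).

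Dusp1 was 178 ± 96.8 CPM in lung, 69.8 ± 23.2 in kidney and 40.5 ± 13.7 in liver, and each step differed (adjusted p = 1.3e-07 for lung against kidney and 4.1e-04 for liver against kidney). Dusp6 was 39.7 ± 3.78 CPM in lung, against 19.6 ± 1.98 in kidney and 18.1 ± 4.01 in liver, which did not differ from each other (-0.12 ± 0.16, adjusted p = 0.53). Dusp3 was highest in lung (238 ± 31.9 CPM), then in liver (109.7 ± 15.2) and in kidney (85.6 ± 7.95). Dusp16 and Dusp10 were lowest in kidney, at 20.3 ± 3.93 and 1.27 ± 0.751 CPM, and did not differ between liver and lung (adjusted p = 0.63 and 0.12). Dusp4 went the other way, highest in kidney at 2.23 ± 1.35 CPM against 0.931 ± 0.613 in lung and 0.693 ± 0.352 in liver, which did not differ from each other (adjusted p = 0.28).

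**Figure D4:**
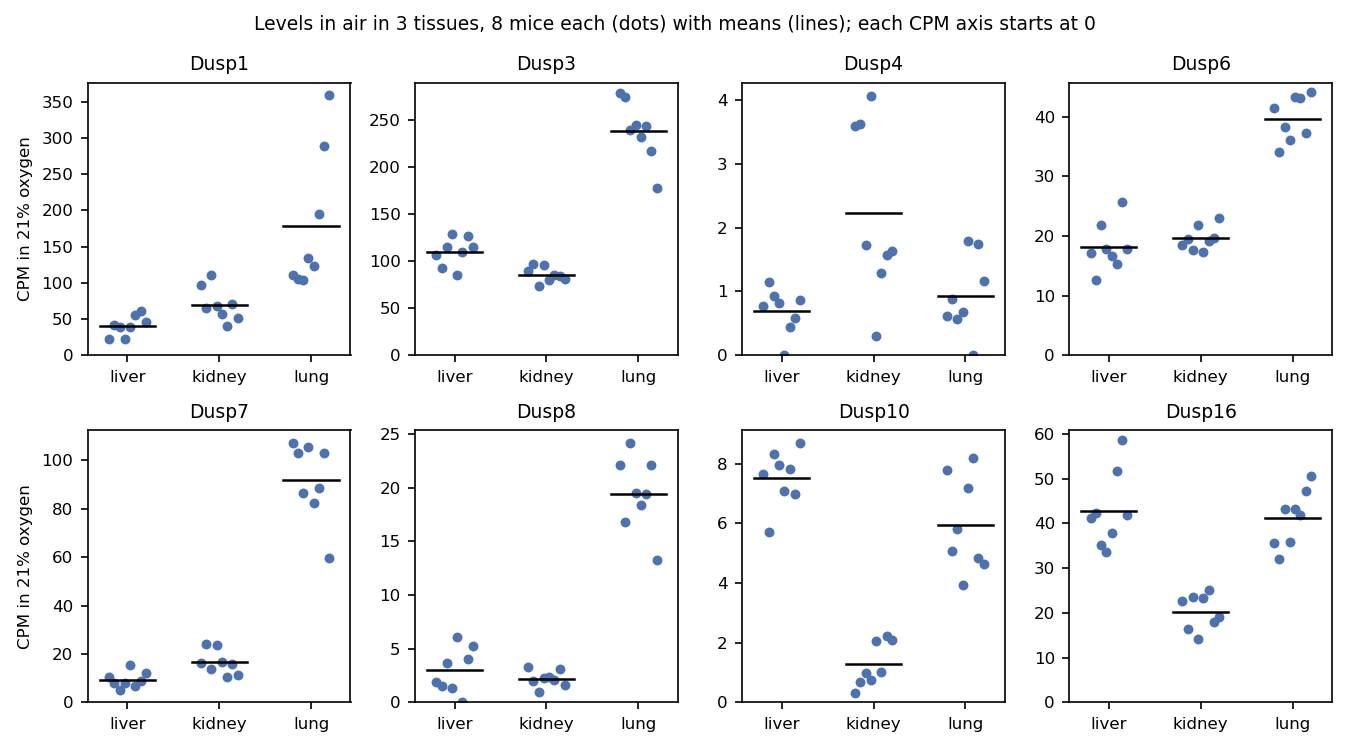
CPM of each member in 21% oxygen in liver, kidney and lung, from the fit over the 3 light-dark tables; dots are 8 mice per tissue with both times pooled, lines are means, and each axis starts at 0. Lung stands highest for Dusp1, Dusp3, Dusp6, Dusp7 and Dusp8, and kidney for Dusp4, which was close to the counting limit in air.

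The difference between tissues in the response itself was tested in the same fit. Against kidney, the liver response was larger for Dusp6 (log2 difference 2.28 ± 0.22, adjusted p = 1.0e-09), Dusp4 (2.20 ± 0.45, adjusted p = 0.0010) and Dusp1 (1.57 ± 0.25, adjusted p = 8.3e-05) and more negative for Dusp7 (-1.66 ± 0.24, adjusted p = 3.1e-06), which makes 4 of 8 members against 6.43% of all genes. Lung minus kidney was positive for Dusp6 (2.56 ± 0.21, adjusted p = 1.8e-11) and Dusp16 (0.80 ± 0.15, adjusted p = 3.4e-04) and negative for Dusp7 (-1.13 ± 0.17, adjusted p = 7.9e-06), 3 of 8 against 8.05%. The 2 comparisons share the kidney libraries. Liver minus lung was positive for Dusp1 (0.98 ± 0.25, adjusted p = 0.0063) and Dusp4 (1.98 ± 0.48, adjusted p = 0.0035) and negative for Dusp10 (-0.97 ± 0.30, adjusted p = 0.024), 3 of 8 against 15.2%. The Dusp10 call ended without any of 3 of the 16 mice, with adjusted p-values up to 0.077. In this fit 3 of 24 air and 20 of 24 low-oxygen libraries held Dusp4 above the filter's level. The gene thus passed through the groups in which it is high, and its calls here are a description. The counts of members that include Dusp4 support nothing beyond it. Dusp6 and Dusp7 were thus the members whose kidney response differed from that of both other tissues.

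Time of day was tested next, in air and in the response. In air, Dusp1 was higher at the later time in lung (log2 difference 1.10 ± 0.25, adjusted p = 0.049), 1 of 8 members against 0.979% of genes, and in WT constant-dark liver (1.22 ± 0.28, adjusted p = 0.016), 1 of 7 against 3.66%. The lung call ended in 7 of 8 fits that left out 1 library, with adjusted p-values up to 0.16, and the one in WT liver without air replicate B (0.050) or D (0.054) of CT4-8. None of the members was called for time in air in light-dark liver (5.91% of genes), kidney (1.09%) or KO liver (0.0235%). Without air replicate C of ZT4-8, which stood apart, kidney Dusp4 was called lower at the later time (-1.58, adjusted p = 0.040). At an unadjusted p under 0.05 Dusp1 passed in light-dark liver, Dusp1, Dusp4 and Dusp7 in kidney and Dusp16 in KO liver, and DESeq2 called none of the members in those 3 tables.

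The response to oxygen was not called different between the times for any member in light-dark liver (2.06% of genes), kidney (0.368%), lung (0.255%), WT constant-dark liver (1.62%) or KO liver (0.0117%). At an unadjusted p under 0.05 edgeR passed Dusp1 in light-dark liver, lung and WT constant-dark liver and Dusp16 in lung, and DESeq2 called none of the members in any table. The Dusp1 response was smaller at the later time in 4 of the 5 tables, with log2 differences of -1.06 ± 0.37 in light-dark liver (adjusted p = 0.19), -1.05 ± 0.34 in lung (0.40), -1.25 ± 0.37 in WT constant-dark liver (0.11) and -0.46 ± 0.65 in KO liver (0.93), and 0.56 ± 0.29 in kidney (0.54). In WT constant-dark liver the difference passed the test without the library that stood apart (-1.80, adjusted p = 1.2e-05), and in lung without air replicate A of ZT16-20 (-1.27, adjusted p = 0.0091).

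The genotypes were compared in 1 fit over both constant-dark tables, in which genotype and table coincide, so a difference between tables cannot be told apart from one between genotypes in air. In air no member was called at CT4-8 (4.51% of genes) or at CT16-20 (2%). Dusp4 came closest at CT4-8, lower in KO by a log2 difference of -2.10 ± 0.68 (adjusted p = 0.067), and passed without KO air replicate A (-3.06, adjusted p = 0.047). Without the library of WT liver at CT4-8 that stood apart, Dusp3 was higher in KO at that time (0.58, adjusted p = 0.012) where it was 0.21 ± 0.18 with it (adjusted p = 0.56). At an unadjusted p under 0.05 edgeR passed Dusp4 and Dusp8 at CT4-8 and none at CT16-20, and DESeq2 called none at either time.

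The response differed between genotypes for 1 of 8 members at CT4-8 (2.42% of genes) and for none at CT16-20 (0.0444%), where Dusp3 and Dusp8 passed an unadjusted p of 0.05 in edgeR and DESeq2 called none. At CT4-8 the Dusp4 response was larger in KO by 2.95 ± 0.78 (adjusted p = 0.033), which sets the ratio of 14.05 in KO beside that of 1.64 in WT. In that fit 0 of 16 air libraries and 3 of 15 low-oxygen libraries were above the filter's level, so the gene passed through the KO group in which it is high and the call is a description. It rests on 3 counts in KO air. With 1 of the 16 libraries left out the call ended in 6 of the 14 fits that could test the gene, with adjusted p-values up to 0.084, and in the other 2 the gene no longer passed the filter. It also ended when all libraries were thinned to the same depth. Dusp8, called in WT and not in KO, had genotype differences of -1.33 ± 0.59 (adjusted p = 0.24) and -1.21 ± 0.56 (0.46), so its response was not shown to differ. The Dusp1 response differed by 0.30 ± 0.55 and 1.08 ± 0.54 (adjusted p = 0.84 and 0.52).

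The rest of the pathway was described from lists of related genes. How many libraries were above the filter's level was not counted for these genes, so their calls are a description. Of 13 to 17 genes tested of the ERK module (RAS, RAF, MEK, ERK and adaptors), at most 2 were called in any setting and none in kidney, and of 6 to 8 genes of the JNK module none was called outside lung at ZT16-20. Over all genes 4.51% to 22.6% were called in these settings, so the ERK counts are near that background or below it. The ERK module genes called included Lamtor3 (-0.80 ± 0.19) in light-dark liver at ZT4-8, Mapk3 (0.71 ± 0.16) there at ZT16-20, Map2k1 (0.54 ± 0.15) and Rps6ka1 (-0.54 ± 0.12) in lung at ZT4-8, Grb2 (0.34 ± 0.11) and Sos1 (-2.37 ± 0.52) in lung at ZT16-20, and Lamtor3 (-1.40 ± 0.39) and Grb2 (0.40 ± 0.13) in WT constant-dark liver at CT4-8, as log2 fold changes. Those of the JNK module in lung at ZT16-20 were Mapk9 (0.50 ± 0.12), which encodes JNK2, its scaffold Mapk8ip1 (0.64 ± 0.20) and Map3k11 (-0.39 ± 0.13). They come from the 6 to 8 genes tested in a setting, and 21.1% of all genes were called in lung at that time. In the p38 module Mapkapk2, the kinase downstream of p38, was higher in 6% oxygen in all 6 liver settings and both of lung, for example from 98.2 to 226 CPM in liver at ZT4-8 (log2 fold change 1.20 ± 0.16, adjusted p = 2.2e-05). Map3k6, an upstream kinase of the ASK family, rose in lung from 118 to 362 CPM at ZT16-20 (1.63 ± 0.14, adjusted p = 4.4e-09) and in kidney at the same time (1.52 ± 0.21, adjusted p = 8.5e-05). Map2k3 and Map2k6 encode the kinases that activate p38. Map2k3 rose in lung at both times (0.52 ± 0.10 and 0.91 ± 0.11), and Map2k6 in 3 of 6 liver settings (2.09 ± 0.34 in light-dark liver at ZT16-20) and in kidney at ZT4-8 (0.90 ± 0.24). In liver Map2k3 was also called in 3 of 6 settings and Map3k6 in 2 of 6. These p38 module genes were named because they were called most often, so they do not show that the module as a whole exceeded the background. Of 9 to 13 receptor tyrosine kinases tested, at most 2 were called in any setting. Fgfr3 was higher in KO liver (0.99 ± 0.23 and 0.87 ± 0.24) and lower in WT constant-dark liver at CT4-8 (-0.72 ± 0.20), Met was lower in kidney at ZT16-20 (-0.71 ± 0.16) and in KO liver at CT16-20 (-0.79 ± 0.23), Kdr was higher in light-dark liver at ZT16-20 (0.56 ± 0.16), and Fgfr3 and Flt1 were higher in lung at ZT16-20 (0.30 ± 0.11 and 0.40 ± 0.13).

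Among other feedback inhibitors of receptor and ERK signalling, Spry4, a Sprouty inhibitor of receptor signalling, rose in lung from 24.4 to 137 CPM at ZT4-8 (log2 fold change 2.48 ± 0.17, adjusted p = 1.5e-10) and in light-dark liver at both times, from 2.49 to 5.85 CPM at ZT16-20 (1.19 ± 0.39, adjusted p = 0.033). Errfi1, the inhibitor of EGF receptor kinase activity, rose in lung from 106 to 721 CPM at ZT4-8 (2.76 ± 0.22, adjusted p = 8.1e-08). Il17rd, an inhibitor of FGF signalling, fell in lung (-1.05 ± 0.16 at ZT4-8, adjusted p = 3.4e-05) and in kidney (-0.72 ± 0.19, adjusted p = 0.032). In all, 3 of 11 such genes were called higher and 1 lower in lung at ZT4-8, 1 and 0 of 8 in liver and 0 and 1 of 9 in kidney at the same time, where 22.6%, 9.64% and 5.28% of all genes were called in either direction. Spry1 also rose in lung at ZT4-8 (0.55 ± 0.13), Errfi1 in WT constant-dark liver at CT4-8 (0.83 ± 0.15), and Spred1 fell in light-dark liver at ZT16-20 (-0.83 ± 0.23). By the test of the difference in response, lung exceeded kidney for Errfi1 (2.32 ± 0.18, adjusted p = 9.3e-12) and Spry4 (2.21 ± 0.24, adjusted p = 1.1e-08).

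Of 12 further dual-specificity phosphatases listed, 6 to 10 were tested per setting. In lung 1 was called higher and 2 lower of 10 at ZT4-8 and 1 higher and 3 lower of 10 at ZT16-20, where 22.6% and 21.1% of all genes were called, and elsewhere 0 to 2 were called in a setting. Dusp2, a nuclear, inducible relative of Dusp1 and Dusp4, rose in lung from 12.3 to 67.4 CPM at ZT4-8 (log2 fold change 2.46 ± 0.24, adjusted p = 1.2e-07) and in kidney from 2.71 to 8.74 CPM (1.69 ± 0.24, adjusted p = 1.1e-04). That kidney air mean lay below the filter's level of 3.24 CPM, so the kidney call is a description. Dusp11, which acts on RNA 5′ ends rather than on MAP kinases, fell in light-dark liver at both times (-0.84 ± 0.18 and -1.03 ± 0.17), in WT constant-dark liver at CT16-20 (-0.73 ± 0.20) and in KO liver at CT4-8 (-0.65 ± 0.18). Dusp23 (-0.75 ± 0.12 and -0.96 ± 0.12) and Dusp18 (-0.60 ± 0.16 and -0.82 ± 0.17) fell in lung at both times and Dusp19 at ZT16-20 (-0.72 ± 0.25), and Dusp14 rose in light-dark liver at ZT16-20 (1.14 ± 0.38).

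Transcripts known to depend on ERK activity were higher in 6% oxygen in most cases called. In lung 12 of 13 tested were called higher at ZT4-8, where 11.2% of all genes were called higher, and 10 of 13 at ZT16-20 (10.2%), with a median log2 fold change of 1.90 and 1.57. In kidney 6 of 10 were called higher at each time (2.79% and 3.44% of all genes) and in light-dark liver 6 and 4 of 10 (5.43% and 9.98%). In constant-dark liver 3 and 5 of 9 were called higher in WT at CT4-8 and CT16-20 (5.7% and 5.28% of all genes) and 5 and 2 of 9 in KO (2.83% and 2.39%). Whether these genes passed the filter through the groups in which they are high was not counted, so their numbers called are a description. Fos rose in 5 of 6 liver settings, by 2.81 ± 0.38 in light-dark liver at ZT4-8. In lung Srf rose by 1.90 ± 0.14 and 1.57 ± 0.15 and Ier2 by 1.19 ± 0.11 and 0.76 ± 0.11 at ZT4-8 and ZT16-20. Maff, a small MAF transcription factor, rose in all 10 settings, for example from 3.96 to 63.8 CPM in liver at ZT4-8 (log2 fold change 3.98 ± 0.22, adjusted p = 3.3e-11), as did Ier3, from 106 to 262 CPM in kidney at ZT4-8 (1.30 ± 0.14, adjusted p = 3.0e-06). In kidney, where Dusp6 went down, Egr1 rose from 10.2 to 97.8 CPM at ZT4-8 (3.26 ± 0.23, adjusted p = 1.3e-08) and Junb from 34.0 to 108 CPM (1.67 ± 0.14, adjusted p = 1.1e-07). Phlda1, named after its values were seen because its direction differed, fell in light-dark liver and in kidney at ZT16-20 and rose in lung at both times.

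Across the 20 group means of log2 CPM, each centred on its table, the genes most like Dusp1 among 7616 others were Ccnl1 (Pearson r 0.96), Ddit4, Zfp36, Tspyl2 and Gadd45g (0.95 each). Those most like Dusp6 were Pde4b and Rcan1 (0.88 each), Wsb1 and Otud1 (0.87 each) and Rrp1 (0.85). Among the members tested in all 5 tables, Dusp1 correlated with Dusp8 at 0.87, with Dusp16 at 0.85, with Dusp6 at 0.70 and with Dusp7 at -0.59, and Dusp8 with Dusp16 at 0.89. The means of 1 table share libraries and scaling, and genes are not independent, so these correlations are descriptions.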

How the data were processed

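Bulk RNA of 79 libraries was sequenced as linearly amplified RNA, pooled after plate-based reverse transcription, per the labels' protocols. The authors deposited 5 tables of raw counts per gene symbol. Per the submitters' processing notes, STAR, HTSeq, cutadapt and bcl2fastq were used with build mm10. The annotation, and whether counting used strand, is not given in these sources. Each table was fitted with edgeR 4.0.16 in R 4.3.3 (limma 3.58.1; filterByExpr with a minimum count of 10 and a minimum total of 15, TMM scaling, robust quasi-likelihood test on the 4 groups of a table). P-values were Benjamini-Hochberg adjusted over all genes tested, and an adjusted p under 0.05 was called. Standard errors were taken from the fold change and its F statistic. The genotype comparisons used 1 fit over both constant-dark tables, and the tissue comparisons 1 fit over the 3 light-dark tables with the mouse as a block, where the same time, oxygen and replicate letter was taken to mark the same mouse. Alternatives were RLE scaling, no filter, DESeq2 1.42.0, fits on only the groups compared, a replicate block or none, thinning to the smallest library and leaving out each library in turn. The test was checked on simulated counts.

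The members, lists and tests were chosen with earlier results of these data known. All 9 members are named. Of each pathway list, up to 4 genes per tissue were named, those called in the most oxygen settings with ties by smallest p, and for Dusp1 and Dusp6 the 5 genes of highest Pearson correlation over the 20 group means. A result that this rule would name is not reported here. Libraries held 1443279 to 6744476 counts, and 0 of 117 library pairs within groups were identical. Within tables and in the genotype fit, p-values measure the spread between mice of a group. In the tissue fit, with the mouse as a block, they measure the spread that remains between tissues of the same mouse label. Exact intervals of count ratios have a 95% level.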

Additional observations from a re-analysis of the deposited data

Results flagged for a closer look

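In 6 of 144 sets of 4 mice, the highest or the lowest value lay apart from the other 3 by more than Dixon's 95% critical ratio for 4 values, and chance alone marks about 1 in 20 such sets. Of these, 3 came from air replicate A of WT constant-dark liver at CT4-8, the library of lowest correlation with its group. Dusp1 was 56.5 CPM in it against 15.3 to 21.7 in the other mice, Dusp3 was 167 CPM against 75.5 to 78.9, and Dusp16 was 9.52 CPM against 25.4 to 26.4. In KO liver at CT4-8 in air, Dusp3 was 132 CPM in replicate B against 105 to 108. In lung at ZT16-20 in air, Dusp6 was 50.5 CPM in replicate C against 58.2 to 59.5. In WT constant-dark liver at CT4-8 in 6% oxygen, Dusp7 was 5.83 CPM in replicate B against 2.84 to 3.10.

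The response to low oxygen was called different between groups, by a test of the difference itself, in 11 cases. For genotype at CT4-8 this was 1 of 8 members tested (2.42% of all genes). It was 4 of 8 for liver minus kidney (6.43%), 3 of 8 for lung minus kidney (8.05%) and 3 of 8 for liver minus lung (15.2%). None was called for genotype at CT16-20 or for time in any table. The tissue comparisons share libraries, so their cases are not independent. The Dusp4 response at CT4-8 was larger in KO than in WT liver by 2.95 on the log2 scale, for a gene that passed the filter through the KO low-oxygen libraries. Liver minus kidney differences were 1.57 for Dusp1, 2.20 for Dusp4, 2.28 for Dusp6 and -1.66 for Dusp7. Lung minus kidney differences were 2.56 for Dusp6, -1.13 for Dusp7 and 0.80 for Dusp16. Liver minus lung differences were 0.98 for Dusp1, 1.98 for Dusp4 and -0.97 for Dusp10. Dusp4 passed the filter of the tissue fit through the low-oxygen libraries, so its tissue differences are a description, as is its genotype difference.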

How the results depend on the processing

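Of the 43 oxygen calls of members, 32 held under every alternative that could test them, 11 were lost under at least 1, and 0 changed sign. Of the 33 values not called, 4 were called under at least 1 alternative. None of the 75 called values over the 30 comparisons changed sign. The number of members called moved by over 1.5 times as follows. With the replicate block it became 1 (Dusp1) for oxygen by time in light-dark liver, for time in air in light-dark liver and for oxygen by time in WT constant-dark liver, 2 for oxygen in kidney at ZT16-20 and 0 for time in air in lung. With only the 2 groups compared it became 0 for time in air in lung and in WT constant-dark liver and 1 for oxygen in KO liver at each time. With no filter it became 0 for time in air in lung. For genotype by oxygen at CT4-8 it became 0 with DESeq2, which gave Dusp4 no adjusted p, and 0 after thinning.

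With 1 library left out, the count ran from 1 to 4 for oxygen in kidney at ZT16-20, from 1 to 3 for oxygen in WT liver at CT16-20 and in KO liver at CT4-8 and CT16-20, and from 0 to 1 for time in air in kidney, lung and WT constant-dark liver, for oxygen by time in lung and WT constant-dark liver, and for genotype by oxygen and genotype in air at CT4-8. The cause was not tested.

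The replicate letters did not pair the samples of a table: same-letter libraries correlated in their deviations at -0.29 to 0.26 in light-dark liver, with 4 of 24 pairs over 0.1, and 0 of 24 in lung. Across tissues the median for the same mouse label was 0.026, with 7 of 48 pairs over 0.1. The block was therefore an alternative within tables, and no block was fitted across the constant-dark tables, whose mice differ. Low counts limit Dusp4 in every tissue, Dusp8 and Dusp10 outside lung and Dusp7 in liver.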
